A study of Mus musculus with 25 samples.

Results

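Among the first genes transcribed from the mouse embryonic genome are families that are switched on for a short time at the two-cell stage, together with the endogenous retrovirus MERVL and its long terminal repeat MT2_Mm. The 9 such genes described here were *Zfp352*, *Tcstv1*, *Tcstv3*, *Usp17la*, *Usp17lc*, *Usp17le*, *Tdpoz1*, *Tdpoz3* and *Tdpoz4*. They were chosen by name, as the rows of the gene count table whose Ensembl identifiers carry these symbols. All 9 of the 9 were found among the 55375 genes of the table, and all 9 entered the test, which covered 25794 genes on the autosomes that averaged 1 read or more per library.

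RNA was sequenced from pools of 5 to 10 wild-type mouse embryos, collected at the two-cell stage 28 to 29 h after insemination or activation, in 25 libraries of 11 groups. IVF embryos (4 libraries) came from C57BL/6N oocytes and DBA2 sperm. All other embryos were made by somatic cell nuclear transfer (SCNT), in which the nucleus of a BDF1 cumulus cell replaces that of a BDF1 oocyte, so that oocyte strain and embryo type cannot be told apart in any comparison with IVF. Oocyte donors were superovulated females, which for C57BL/6N the labels give as 4 to 20 weeks old and the supplement of the study as a narrower range. Control SCNT embryos (2 libraries) were made in cytochalasin B, as were SCNT-*Kdm3a* and SCNT-*Kdm4d* embryos (2 libraries each), which received 10 pL of *Kdm3a* or *Kdm4d* mRNA at 1500 ng/µL 5 to 6 h after activation. The remaining SCNT groups were made in latrunculin A (LatA in the labels), namely CC_cont without a further agent (2 libraries), CC_T with the histone deacetylase inhibitor trichostatin A (TSA) at 25 nM for 8 h (2), and CC_G with a G9a inhibitor at 1 µM for 24 h, either RK-701 (R701 in the labels; 3) or A366 (2). In CC_TG embryos TSA was combined with RK-701, A366 or UNC0638 (2 libraries each). KDM3A and KDM4D remove methyl groups from lysine 9 of histone H3, whereas G9a adds them. Each library is 1 pool, and the p-values below measure only the spread between these pools.

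Zygotic genome activation at this stage brings a burst of MERVL transcription, and many of the genes transcribed with it are recent, multicopy and found only in rodents. *Zfp352* encodes a zinc finger protein and is a common marker of the state. The *Tcstv* genes (two-cell-stage, variable group) form a cluster on chromosome 13, the *Usp17l* genes encode deubiquitinating enzymes, and the *Tdpoz* genes encode proteins with a TRAF and a POZ domain. A read that matches more than 1 place in the genome was not counted, which matters for such families.

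The promoter of *Zfp352* is shown because its letters set it apart from those of the other genes, and those of *Usp17la* and *Usp17lc* because the pair is nearly identical and the counts of these genes were not. Sequences are the RefSeq windows of 250 bases before the RefSeq start, in the GRCm38.p6 build (mm10), 5′ to 3′. The counted genes begin elsewhere for *Usp17la* (at 104857009), *Usp17lc* (at 103415072) and *Tdpoz1* (at 93676310, on the minus strand), so their windows lie partly or wholly inside the counted gene. Windows were listed for 5 of the 9 genes (*Zfp352*, *Usp17la*, *Usp17lc*, *Tdpoz1* and *Tdpoz4*). *Zfp352* lies on the plus strand, and its window is chr4:90218570-90218819. The capitals mark TAATCC, which is GGATTA on the other strand, the core letters preferred by homeodomain proteins such as OTX2.
Zfp352: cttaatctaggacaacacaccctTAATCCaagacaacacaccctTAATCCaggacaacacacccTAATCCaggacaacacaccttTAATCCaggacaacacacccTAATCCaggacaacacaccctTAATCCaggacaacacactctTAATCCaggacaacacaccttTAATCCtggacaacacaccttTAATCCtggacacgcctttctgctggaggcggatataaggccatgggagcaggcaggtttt
The window held 9 copies, all in the same orientation and 20 to 21 bases apart, from 227 to 56 bases before the start, so they are units of a short tandem repeat. The motif, TAATCC or GGATTA, was searched on both strands in 32851 windows of the same length. It was present in 6.252% of them, and no other window held more than 4 copies. *Tdpoz1* had 1 copy and *Usp17la*, *Usp17lc* and *Tdpoz4* had 0. A match is a match of letters and was not tested as a binding site.

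**Figure D1:**
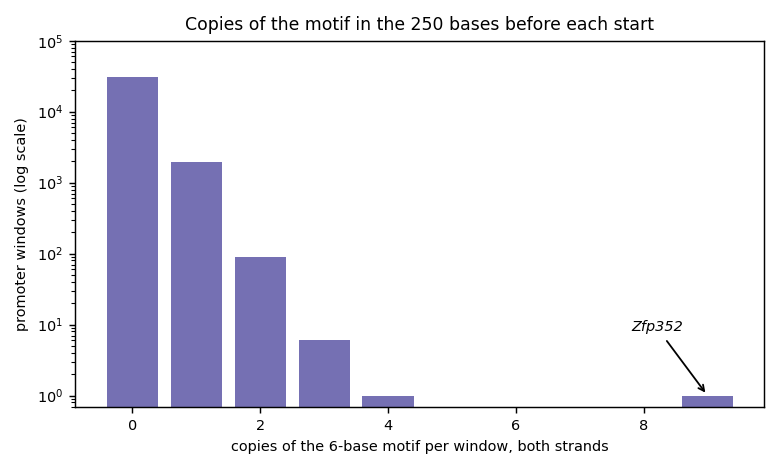
Number of promoter windows (vertical axis, log scale) by the number of copies of the motif in the 250 bases before the annotated start (horizontal axis, both strands). Of 32851 windows, 30797 held 0 copies, 1 held 4, and the window of *Zfp352* held 9.

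The stretches of the *Usp17la* and *Usp17lc* windows that align are chr7:104856808-104857015 and chr7:103416446-103416653, both on the plus strand. The capitals mark the bases at which they differ.
Usp17la: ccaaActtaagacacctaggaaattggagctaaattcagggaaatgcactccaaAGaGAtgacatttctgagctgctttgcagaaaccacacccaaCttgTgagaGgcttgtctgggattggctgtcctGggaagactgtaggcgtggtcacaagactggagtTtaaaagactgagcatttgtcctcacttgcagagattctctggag
Usp17lc: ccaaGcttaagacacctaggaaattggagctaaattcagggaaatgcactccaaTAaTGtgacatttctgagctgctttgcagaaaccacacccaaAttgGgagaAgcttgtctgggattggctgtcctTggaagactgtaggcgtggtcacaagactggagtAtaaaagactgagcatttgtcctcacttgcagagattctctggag
Over 208 aligned bases 198 were the same and 10 differed, an identity of 95.2% with 0 gaps. The transcripts of *Usp17la* and *Usp17lc* were 93.7% identical over 2338 aligned bases, those of *Usp17la* and *Usp17le* 94.9% over 1885, and those of *Tcstv1* and *Tcstv3* 90.1% over 769. Among the *Tdpoz* members the identity ran from 78.4% for *Tdpoz1* and *Tdpoz4* to 88.1% for *Tdpoz1* and *Tdpoz3*.

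How much of each transcript is shared with other annotated transcripts differed between the genes. *Zfp352*, *Tcstv1* and *Tcstv3* had 0% of their 150-base windows in another gene's transcript. The share was 0.806% for *Usp17le*, 1.28% for *Usp17la*, 6.54% for *Tdpoz4* and 12.4% for *Tdpoz1*, and rose to 29.4% for *Usp17lc*, shared with *Usp17ld* and *Usp17le*, and 33.4% for *Tdpoz3*, shared with *Gm4982*. Copies in the genome outside annotated transcripts were not searched, so these shares can be too low. By this measure counts of the last 2 genes are the most uncertain in level. The share is the same in every library, so it bears on levels between genes more than on differences between groups.

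In the deposited table of element copies 0 of 374094 copies on the 4 chromosomes involved overlapped an exon of any gene, so a MERVL copy on an exon of these genes would not be seen. The nearest MT2_Mm copy listed lay 23.5 kb from the start of *Tcstv1* and 35.3 kb from that of *Tcstv3*, and for the remaining 7 genes the distance was 97.9 kb (*Zfp352*) to 1099.1 kb (*Usp17lc*). Of the 6329 genes tested on these chromosomes 6.6% had an MT2_Mm or MERVL-int copy within 25 kb, and the median distance was 362.9 kb. *Tcstv1* was the 1 member within that limit.

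Total reads on genes ranged from 6662727 to 21188688 per library (median 13994840). The 6 oocyte and early embryo markers *Nlrp5*, *Padi6*, *Ooep*, *Tle6*, *Khdc3* and *Zbed3* summed to 478 to 2148 CPM (counts scaled to library size with TMM factors) in the 25 libraries. Each gene was read in at least 1 library, but *Zbed3* alone was at 244 to 2017 CPM and *Khdc3* at 0 to 3.02 CPM. The 8 cumulus cell markers summed to 29.4 to 68.6 CPM, most of it from *Amhr2* (23.9 to 64.6 CPM) and *Tnfaip6* (1.70 to 11.3 CPM), while *Fshr* did not exceed 6 reads. *Kdm3a* was at 3116 and 3465 CPM in SCNT-*Kdm3a* libraries against 201 and 205 CPM in control SCNT, and *Kdm4d* at 12540 and 18542 CPM in SCNT-*Kdm4d* libraries against 0.718 and 2.52 CPM, so both injections match their labels.

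In IVF embryos the 9 genes spanned a wide range of levels. Per length, *Zfp352* (361 ± 34.9 TPM, SD, n = 4) and *Tcstv3* (333 ± 53.2 TPM) were the most abundant, followed by *Tdpoz4* (142 ± 23.1 TPM), *Tdpoz1* (129 ± 11.6 TPM), *Tcstv1* (99.04 ± 27.3 TPM) and *Usp17lc* (80.6 ± 9.63 TPM). *Tdpoz3* (19.3 ± 2.00 TPM), *Usp17la* (15.0 ± 5.61 TPM) and *Usp17le* (10.8 ± 3.10 TPM) were lower than these 6. Neighbours such as *Zfp352* and *Tcstv3*, or *Tdpoz4* and *Tdpoz1*, differed by less than the larger of their SDs.

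**Figure D2:**
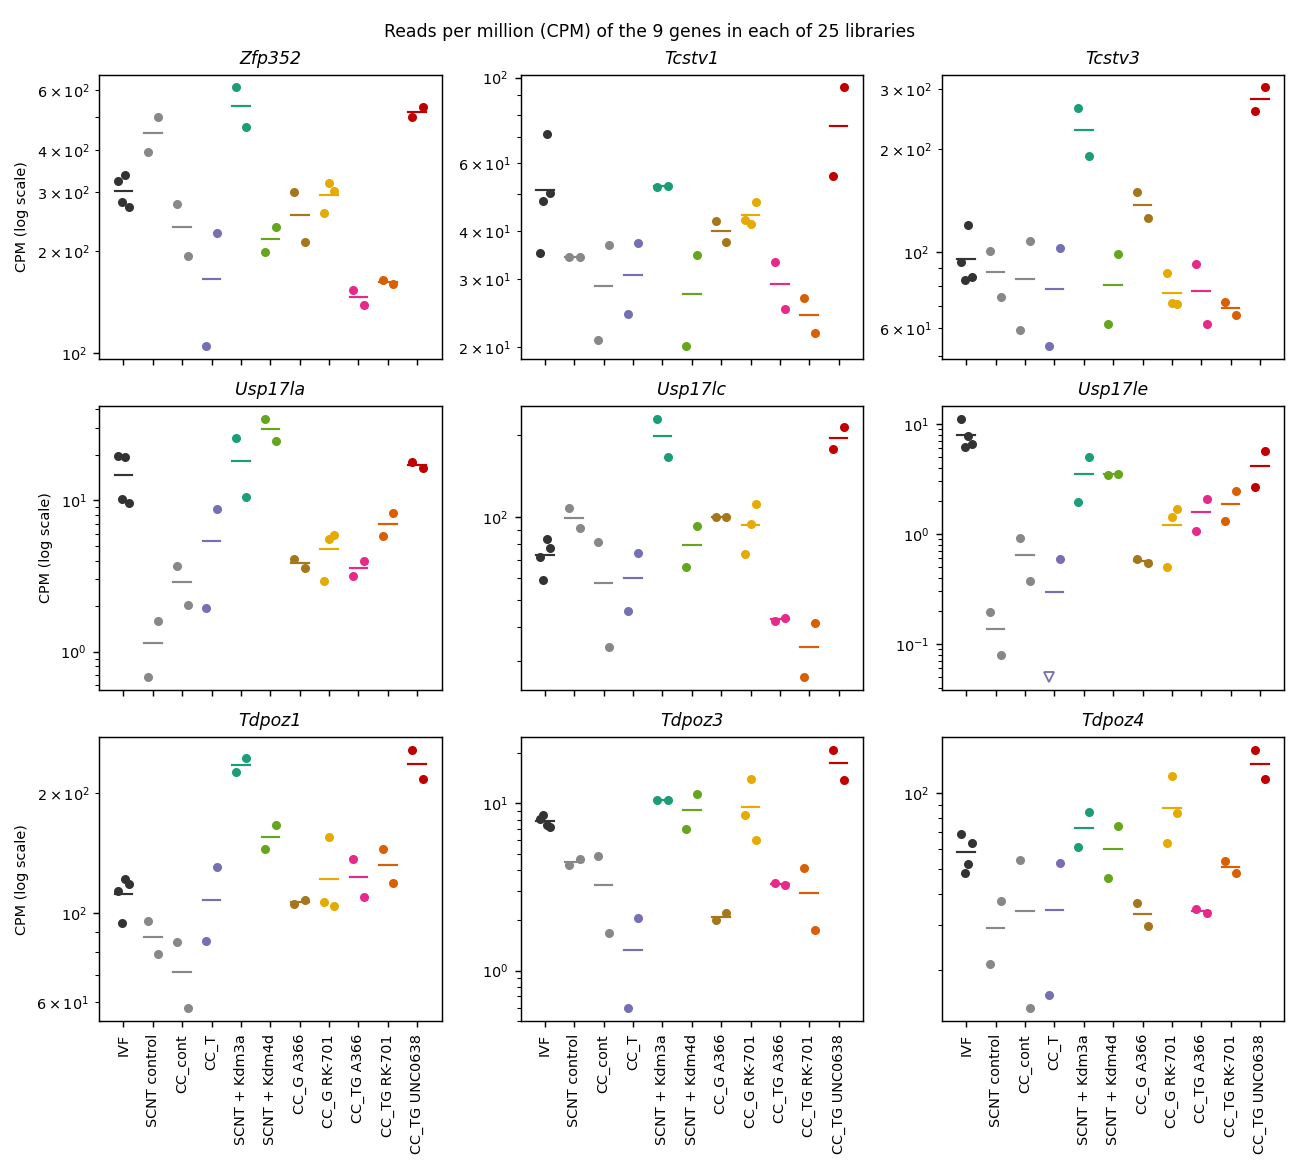
CPM (log scale) of each gene in each of the 25 libraries, by group; points are libraries, lines are group means, and the open triangle marks a library with 0 reads. *Usp17la* and *Usp17le* were lower in all SCNT libraries without treatment than in any IVF library, and all 9 genes were higher in both CC_TG (UNC0638) libraries than in either CC_cont library. Such separation was not counted over all genes tested.

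The first question is which of these genes are not activated to the IVF level after SCNT. In control SCNT embryos 2 of the 9, *Usp17la* and *Usp17le*, were lower than in IVF, and 0 were higher, where 6.82% of all genes tested were lower (edgeR quasi-likelihood test, adjusted p under 0.05 and over 2-fold, the rule for every call below). *Usp17la* was at 19.7, 10.2, 19.5 and 9.55 CPM in IVF libraries and at 0.678 and 1.59 CPM in control SCNT. It differed by −3.65 on the log2 scale (SE 0.586, adjusted p = 4.5e-05). *Usp17le* was at 11.2, 6.22, 7.71 and 6.62 CPM in IVF (72 to 119 reads), whereas the control SCNT libraries held 2 reads and 1 read. It was at least 29.9-fold lower, a bound set at 3 reads per library (adjusted p = 5.2e-05). The groups did not overlap for either gene. The difference can be a lower level in every embryo or fewer embryos with the transcript, which cannot be told apart in pools. *Usp17la*, *Usp17le* and *Tdpoz3* belong to the list of reprogramming-resistant genes that the study drew up in part from these libraries, so a lower level of these 3 is not independent evidence.

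The other 7 genes were not called in this comparison. *Zfp352* was at 271 to 337 CPM in IVF and at 394 and 500 CPM in control SCNT, a log2 difference of 0.56 (adjusted p = 0.0583). *Usp17lc* also stood above IVF, at 108 and 91.6 CPM against 59.4 to 83.4 CPM (log2 difference 0.45, adjusted p = 0.230). *Tcstv1*, *Tdpoz3* and *Tdpoz4* lay under every IVF library with log2 differences of −0.58, −0.81 and −0.99 that missed the threshold, and *Tcstv3* and *Tdpoz1* overlapped IVF. How many of all genes tested lay outside the IVF range was not counted. The median over the 9 genes was −0.59, against 0.014 over all genes tested.

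In CC_cont embryos *Usp17la* (3.69 and 2.05 CPM) and *Usp17le* (0.923 and 0.372 CPM) were again lower than in IVF, by −2.32 (SE 0.516, adjusted p = 0.00158) and −3.53 (SE 0.751, adjusted p = 0.00104) on the log2 scale. These 2 calls compare with 6.48% of all genes called lower. *Tdpoz1* and *Tcstv1* passed the test at less than 2-fold (log2 −0.65, adjusted p = 0.0225, and −0.84, adjusted p = 0.0342). The CC_cont libraries differed from each other in the other genes, *Tdpoz4* being at 54.4 and 14.1 CPM, *Usp17lc* at 81.6 and 33.7 CPM, and *Tcstv3* the other way round at 59.4 and 108 CPM. Without CC_cont replicate 1, *Usp17lc* (log2 −1.11), *Tdpoz3* (−2.21) and *Tdpoz4* (−2.05) were also called lower, and without replicate 2 *Tcstv1* was (−1.30). Directly compared, CC_cont and control SCNT had 0 of the 9 called, where 0.0116% of all genes were called in either direction. At an unadjusted p under 0.05 there were 4, beside 2014 of the 25794 genes tested, and DESeq2 called 0. *Zfp352* had the lowest p (log2 −0.92, adjusted p = 0.307), and *Usp17lc* was called without CC_cont replicate 1 (−1.56, adjusted p = 0.025).

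Position on chromosome 7 separated the *Usp17l* genes that were low after SCNT from those that were not, a feature noticed after the values were seen. *Usp17la*, *Usp17le* and a relative outside the 9, *Usp17lb*, lie within 94.6 kb of each other (chr7:104768049-104862667). *Usp17lc* and its relative *Usp17ld* lie within 170.1 kb of each other (chr7:103249737-103419880), 1348.2 kb away. *Usp17lb* was at 631 to 855 CPM in IVF and at 102 and 276 CPM in control SCNT (log2 −1.99, adjusted p = 0.00128), and so was lower like its neighbours. *Usp17ld* was at 11.5 to 13.4 CPM in IVF and at 11.2 and 23.3 CPM in control SCNT (log2 0.48, adjusted p = 0.399). Control SCNT embryos kept 7.71% of the IVF mean CPM for *Usp17la*, 1.72% for *Usp17le* and 25.2% for *Usp17lb*, but 137% for *Usp17lc* and 139% for *Usp17ld*. The promoter windows printed above for *Usp17la* and *Usp17lc*, 1 from each location, differ at 10 of 208 bases.

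The second question is whether removal of H3K9 methylation by injected demethylases raises these genes. In SCNT-*Kdm3a* embryos 4 of the 9 rose over control SCNT, *Tcstv3*, *Usp17la*, *Usp17le* and *Tdpoz1*, where 2.38% of all genes tested were called higher. *Usp17la* was at 25.9 and 10.6 CPM (log2 difference 3.98, SE 0.622, adjusted p = 0.000275). *Usp17le*, at 1.94 and 5.05 CPM, was at least 13.2-fold higher (adjusted p = 0.0045). Both *Usp17l* genes left the low range of control SCNT, *Usp17la* reaching 124% and *Usp17le* 44.0% of the IVF mean. Their neighbour *Usp17lb* was the 1 called of 4 related genes outside the 9 (log2 3.285, adjusted p = 0.000171), at 246% of the IVF mean. *Tcstv3* was at 264 and 192 CPM against 101 and 74.0 CPM (log2 1.38, SE 0.299, adjusted p = 0.00537). *Tdpoz1* was at 225 and 244 CPM against 95.5 and 79.2 CPM (log2 1.43, SE 0.232, adjusted p = 0.000403). These 2 genes, which had not been called low after SCNT, thus went above both control SCNT and IVF libraries.

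Values of the other 5 in SCNT-*Kdm3a* were 229 and 166 CPM for *Usp17lc* (log2 0.99, adjusted p = 0.0511), 10.5 and 10.4 CPM for *Tdpoz3* (1.24, adjusted p = 0.156), 61.5 and 84.3 CPM for *Tdpoz4* (1.31, adjusted p = 0.0827), 52.0 and 52.4 CPM for *Tcstv1* (0.61, adjusted p = 0.280) and 612 and 466 CPM for *Zfp352* (0.27, adjusted p = 0.586). All of these but *Zfp352* lay above both control SCNT libraries, and the share of all genes that did so was not counted. The median log2 difference of the 9 was 1.31, against −0.04 over all genes. *Usp17le* missed the threshold without control SCNT replicate 1 (adjusted p = 0.0582), without control SCNT replicate 2 (0.0507) and without SCNT-*Kdm3a* replicate 2 (0.0521), and *Tcstv3* without control SCNT replicate 2 (0.0615) and without SCNT-*Kdm3a* replicate 1 (0.0656). Set against CC_cont instead of control SCNT, *Usp17le* was not called (0.055), and *Zfp352* (1.19, 0.0028), *Usp17lc* (1.77, 0.000507) and *Tdpoz3* (1.65, 0.037) were.

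In SCNT-*Kdm4d* embryos *Usp17la* and *Usp17le* rose over control SCNT and *Zfp352* fell, 3 of the 9, where 3.14% of all genes were called in either direction. *Usp17la* was at 34.7 and 24.5 CPM, its highest group mean (log2 difference 4.66, SE 0.633, adjusted p = 0.000158). *Usp17le* was at 3.47 and 3.51 CPM, at least 13.2-fold higher (adjusted p = 0.00587). *Usp17lb* was again the 1 called of the 4 related genes (log2 2.92, adjusted p = 0.000836), at 190% of the IVF mean. *Zfp352* fell from 394 and 500 CPM to 199 and 237 CPM (log2 −1.04, SE 0.251, adjusted p = 0.0155). *Tdpoz1* passed the test at less than 2-fold, at 145 and 166 CPM (log2 0.83, adjusted p = 0.032). *Tcstv3* stayed in the range of control SCNT, at 61.9 and 99.3 CPM (log2 −0.12, adjusted p = 0.887). The call of *Zfp352* was lost without any 1 of the 4 libraries, with adjusted p of 0.0588 and 0.0888 without control SCNT replicates 1 and 2 and of 0.15 and 0.0757 without SCNT-*Kdm4d* replicates 1 and 2. That of *Usp17le* was lost without control SCNT replicate 1 (0.0807) or 2 (0.0524). Set against CC_cont instead of control SCNT, *Zfp352* differed by −0.11 (adjusted p = 0.857) and *Usp17le* was not called (0.0688), whereas *Tdpoz1* was called (1.12, 0.00356).

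The 2 demethylases were then compared directly, a comparison added after the values above were seen. *Zfp352* (log2 difference −1.31, SE 0.253, adjusted p = 0.0172) and *Tcstv3* (−1.50, SE 0.299, adjusted p = 0.0198) were lower in SCNT-*Kdm4d* than in SCNT-*Kdm3a*, 2 of the 9, where 0.182% of all genes were called lower. *Usp17lc*, at 65.8 and 92.8 CPM against 229 and 166 CPM, was close to the threshold (−1.32, adjusted p = 0.0529), and was called by DESeq2 (0.0053), with RLE factors (0.0494), without a filter on low counts (2.76e-05) and with only the compared libraries (5.08e-05). The difference was 0.69 for *Usp17la* (95% interval −0.36 to 1.74) and 0.01 for *Usp17le* (−1.43 to 1.46), so a gap of over 2-fold in either direction is within the interval of *Usp17le*. Both calls were lost without SCNT-*Kdm3a* replicate 1 (adjusted p of 0.223 and 0.248), SCNT-*Kdm4d* replicate 1 (0.282 and 0.398) or SCNT-*Kdm4d* replicate 2 (0.105 and 0.0569), and *Usp17lc* was called without SCNT-*Kdm3a* replicate 2 (0.0465).

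**Figure D3:**
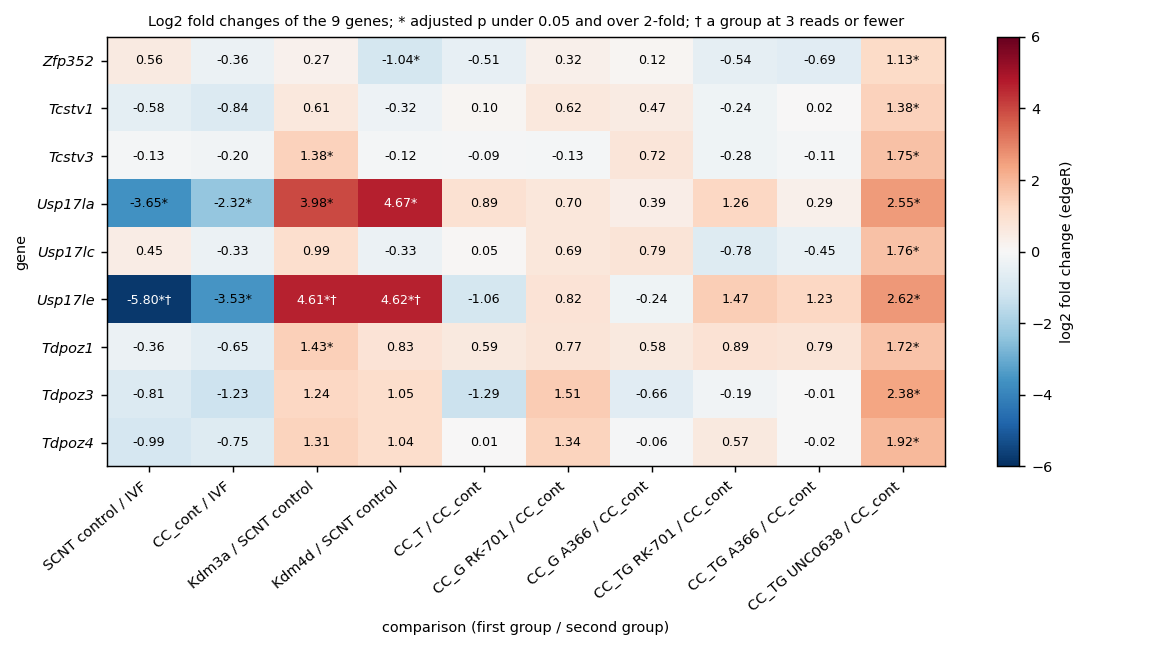
Log2 fold change of each gene (rows) in 10 comparisons (columns, first group over second), from the edgeR fit; an asterisk marks a call, and a dagger marks a comparison in which every library of a group held 3 reads or fewer, where the fitted value is no bound. The rows of *Usp17la* and *Usp17le* carry both calls of each untreated SCNT column and 4 of the 7 calls in the demethylase columns, and the column of CC_TG (UNC0638) is the 1 in which all 9 genes carry a call.

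The third question is whether TSA or a G9a inhibitor alone raises these genes over CC_cont. With TSA 0 of the 9 were called by the edgeR test and 0 by DESeq2, where 0.318% of all genes tested were called. There were 2 of the 9 at an unadjusted p under 0.05, beside 3322 of the 25794 genes tested. All 9 genes were higher in CC_T replicate 2 than in replicate 1, by 1.52 to 4.51 times for the 8 with reads in both, and *Usp17le* had 0 and 9 reads, which allows up to 0.254 CPM in the library with 0. The spread in this group was therefore wide, with *Usp17la* at 1.95 and 8.80 CPM, *Tdpoz4* at 15.9 and 53.1 CPM and *Zfp352* at 105 and 226 CPM. The largest difference from CC_cont was that of *Tdpoz3*, at 0.593 and 2.05 CPM against 4.83 and 1.68 CPM (log2 −1.29, adjusted p = 0.310).

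RK-701 alone gave 0 calls by the edgeR test, against 3.35% of all genes tested. The unadjusted p was under 0.05 for 5 of the 9, beside 5091 of the 25794 genes tested. *Tdpoz1* passed the test at less than 2-fold, at 107, 155 and 104 CPM against 84.7 and 57.8 CPM (log2 0.77, SE 0.213, adjusted p = 0.0302). *Tdpoz3* was at 8.57, 14.0 and 6.04 CPM against 4.83 and 1.68 CPM (log2 1.51, adjusted p = 0.0593) and *Tdpoz4* at 63.2, 117 and 83.3 CPM against 54.4 and 14.1 CPM (log2 1.34, adjusted p = 0.0576). The 3 *Tdpoz* genes sat beside the threshold and were thus above both CC_cont libraries, as was *Tcstv1*. The share of all genes above both CC_cont libraries was not counted. Without CC_cont replicate 1, which held the higher *Tdpoz* values of its group, *Tdpoz1* (log2 1.08, adjusted p = 0.00699), *Tdpoz3* (2.50, 0.0103), *Tdpoz4* (2.64, 0.000925) and *Usp17lc* (1.47, 0.00257) were called higher. DESeq2 called 1 of the 9, *Tdpoz3* (adjusted p = 0.0172). *Usp17la*, at 2.92, 5.59 and 5.87 CPM, and *Usp17le*, at 0.497, 1.44 and 1.70 CPM, overlapped CC_cont and remained lower than in IVF.

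A366 alone also gave 0 calls by the edgeR test and 0 by DESeq2, with 3 at an unadjusted p under 0.05, against 0.12% of all genes. *Tcstv3*, at 150 and 126 CPM, was above both CC_cont libraries (log2 0.72, adjusted p = 0.327) and was called without CC_cont replicate 2 (1.21, adjusted p = 0.0399). Also above both CC_cont libraries, and not called, were *Tcstv1* (42.4 and 37.5 CPM), *Usp17lc* (100.3 and 100.0 CPM) and *Tdpoz1* (106 and 108 CPM). *Tdpoz3*, at 2.01 and 2.19 CPM, and *Tdpoz4*, at 36.6 and 29.8 CPM, overlapped CC_cont.

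Set against each other at the same dose and time, the 2 inhibitors alone differed in *Tdpoz3* and *Tdpoz4*. *Tdpoz3* (log2 difference 2.17, SE 0.5, adjusted p = 0.00386) and *Tdpoz4* (1.40, SE 0.421, adjusted p = 0.0256) were higher with RK-701 than with A366, 2 of the 9, where 4.1% of all genes were called higher. *Tcstv3* differed in the other direction at less than 2-fold (−0.85, SE 0.265, adjusted p = 0.0318). No difference passed for the other 6, whose intervals ran from −0.49 to 2.62 for *Usp17le* and were narrower for the rest, such as −0.28 to 0.66 for *Zfp352*. Both calls were lost without A366 replicate 1 (adjusted p of 0.0529 for *Tdpoz3* and 0.102 for *Tdpoz4*) or replicate 2 (0.0523 and 0.202), and that of *Tdpoz4* without RK-701 replicate 2 (0.107). This was 1 of 4 pairs of inhibitor groups compared directly, all added after the values of the planned comparisons were seen and each adjusted over all genes tested.

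The fourth question is what the combination of TSA with a G9a inhibitor does. With UNC0638 all 9 of the 9 genes rose over CC_cont, where 3.68% of all genes tested were called higher, and DESeq2 called the same number. In every gene both CC_TG (UNC0638) libraries lay above both CC_cont libraries, a separation that was not counted over all genes tested. The median log2 difference of the 9 was 1.76, whereas the median of all genes was −0.077, and it was −0.11 and −0.122 with RK-701 and A366.

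*Zfp352* was at 499 and 536 CPM against 277 and 194 CPM (log2 difference 1.13, SE 0.252, adjusted p = 0.00446). *Tcstv3* was at 260 and 303 CPM against 59.4 and 108 CPM (log2 1.75, SE 0.302, adjusted p = 0.00042), and *Tcstv1* at 55.7 and 94.3 CPM against 20.8 and 36.9 CPM (log2 1.38, SE 0.319, adjusted p = 0.00614). Both *Tcstv* genes thus had their highest group mean here.

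Among the deubiquitinase genes, *Usp17lc* was at 178 and 213 CPM against 81.6 and 33.7 CPM (log2 1.76, SE 0.311, adjusted p = 0.000572). *Usp17la* was at 17.96 and 16.3 CPM against 3.69 and 2.05 CPM (log2 2.55, SE 0.558, adjusted p = 0.00402). *Usp17le*, at 2.67 and 5.67 CPM against 0.923 and 0.372 CPM, had the widest error (log2 2.62, SE 0.778, adjusted p = 0.0326). The rise covered both locations on chromosome 7, unlike the difference between control SCNT and IVF.

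The *Tdpoz* genes, at 256 and 216 CPM for *Tdpoz1*, 20.9 and 13.8 CPM for *Tdpoz3* and 148 and 114 CPM for *Tdpoz4*, rose by 1.72 (SE 0.234, adjusted p = 3.5e-05), 2.38 (SE 0.513, adjusted p = 0.00347) and 1.92 (SE 0.453, adjusted p = 0.00712) on the log2 scale. *Tdpoz3* and *Tdpoz4* were higher here than in any other library except for the overlap with RK-701 alone, whose second library held 14.0 and 117 CPM.

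*Tcstv3*, *Usp17lc* and *Tdpoz1* were called whichever library was left out, and the other 6 were not. Without CC_cont replicate 1 *Tcstv1* was lost (adjusted p = 0.0695). Without CC_cont replicate 2 the calls of *Zfp352* (0.0886), *Usp17la* (0.0704), *Usp17le* (0.221), *Tdpoz3* (0.0767) and *Tdpoz4* (0.125) were lost, which left 4. Without CC_TG (UNC0638) replicate 1 those of *Usp17le* (0.0529), *Tdpoz3* (0.0571) and *Tdpoz4* (0.0735) were lost, and without replicate 2 those of *Tcstv1* (0.129) and *Usp17le* (0.221). Set against control SCNT instead of CC_cont, *Zfp352* differed by 0.21 (adjusted p = 0.667) and *Usp17lc* by 0.97 (0.0503), since both genes were higher in control SCNT than in CC_cont.

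The same co-treatment with RK-701 or A366 gave 0 calls by the edgeR test and 0 by DESeq2, although 6.19% and 5.98% of all genes tested were called in either direction. An unadjusted p under 0.05 was found for 4 and 2 of the 9, beside 6135 and 5921 of the 25794 genes tested. *Tdpoz1* passed the test at less than 2-fold with both, at 145 and 119 CPM with RK-701 (log2 0.89, adjusted p = 0.0135) and at 137 and 110 CPM with A366 (log2 0.79, adjusted p = 0.0289). *Zfp352*, in contrast, lay under both CC_cont libraries in both groups, at 164 and 161 CPM (log2 −0.54, adjusted p = 0.188) and at 153 and 139 CPM (log2 −0.69, adjusted p = 0.0870). Of 4 related *Usp17l* and *Tdpoz* genes outside the 9, 1 was called with RK-701, *Usp17lb* (log2 1.91, adjusted p = 0.00863). With A366 0 of the 4 were called, *Usp17lb* being near the threshold (1.375, adjusted p = 0.0580). The calls among the 9 depended on the reference libraries. Without CC_cont replicate 1, *Tdpoz1* (log2 1.19) and *Tdpoz4* (1.86) were called with RK-701 and *Tdpoz1* (1.09) with A366. *Usp17lc* was called lower with RK-701 without CC_cont replicate 2 (−1.27), and *Tdpoz1* higher without CC_TG (RK-701) replicate 2 (1.02). Against control SCNT, *Zfp352* (−1.46 and −1.61) and *Usp17lc* (−1.56 and −1.23) were called lower and *Usp17le* higher (3.74 and 3.49) in both groups, and *Usp17la* higher (2.59) with RK-701.

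**Figure D4:**
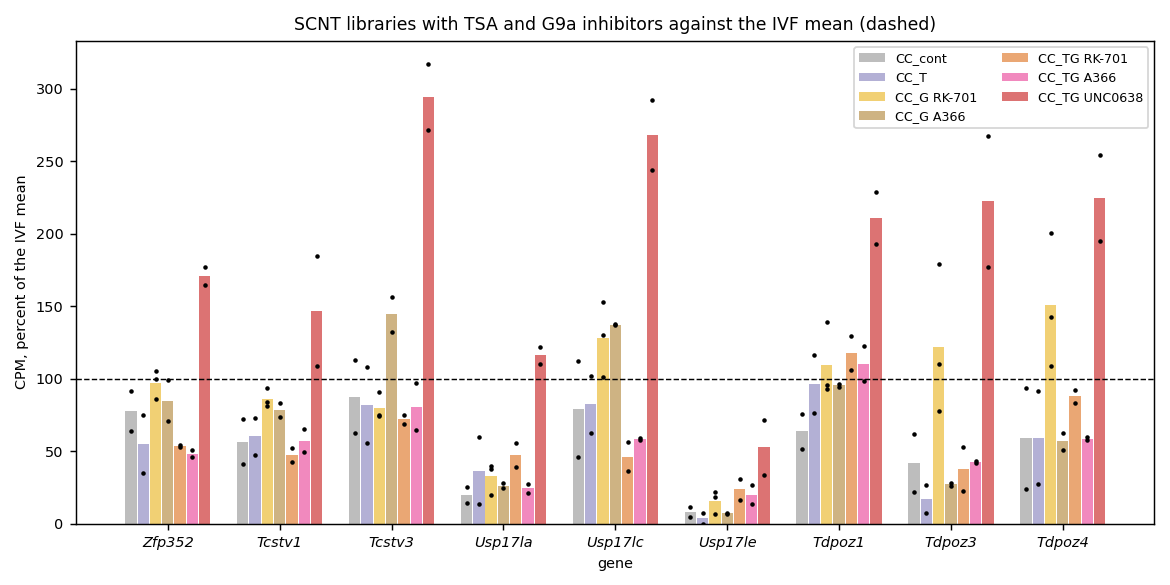
CPM of each gene in the 7 latrunculin A groups as a percentage of its IVF mean (dashed line at 100); bars are group means from 0 and points are libraries. With UNC0638 the mean was 294% for *Tcstv3*, 268% for *Usp17lc* and 52.6% for *Usp17le*. In co-treatment with RK-701 and A366, 4 and 3 of the 9 genes were called lower than IVF, where 5.95% and 5.37% of all genes were.

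The 3 inhibitors are distinct compounds aimed at the same enzyme, and in the co-treatments they were given at the same dose and time, so they were compared directly. With UNC0638, 5 of the 9 genes were higher than with RK-701, where 0.671% of all genes were called higher. They were *Usp17lc* (log2 difference 2.54, SE 0.321, adjusted p = 0.000174), *Tcstv3* (2.04, SE 0.304, adjusted p = 0.000702), *Zfp352* (1.67, SE 0.256, adjusted p = 0.000823), *Tcstv1* (1.63, SE 0.322, adjusted p = 0.00935) and *Tdpoz3* (2.57, SE 0.521, adjusted p = 0.0112). *Zfp352*, *Tcstv3* and *Usp17lc* were called whichever library was left out. *Tcstv1* was lost without CC_TG (RK-701) replicate 1 (0.0653) or 2 (0.227) or CC_TG (UNC0638) replicate 2 (0.234), and *Tdpoz3* without CC_TG (RK-701) replicate 2 (0.325) or CC_TG (UNC0638) replicate 1 (0.0892). The remaining 4 differed by 0.84 for *Tdpoz1* (95% interval 0.37 to 1.31) to 1.36 for *Tdpoz4* (0.45 to 2.27).

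Against A366, 7 of the 9 were higher with UNC0638, where 0.733% of all genes were called higher. *Zfp352* (log2 1.82, SE 0.257, adjusted p = 0.000383) and *Usp17lc* (2.20, SE 0.316, adjusted p = 0.0004) were called whichever library was left out. *Tcstv3* (1.87, adjusted p = 0.00129) was lost without CC_TG (A366) replicate 2 (0.113). *Tcstv1* (1.36, adjusted p = 0.0296), *Usp17la* (2.26, 0.0378), *Tdpoz3* (2.39, 0.0169) and *Tdpoz4* (1.94, 0.0296) were lost in at least 3 of the 4 fits with a library left out, which left 2 to 4 calls. With factors from genes and transposable elements *Usp17la* was also lost (0.0533). *Tdpoz1* passed at less than 2-fold (0.94, adjusted p = 0.0399), and *Usp17le* did not pass (1.39, adjusted p = 0.532).

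Between RK-701 and A366 in co-treatment 0% of all genes tested were called, and 998 of the 25794 had an unadjusted p under 0.05. Of the 9 genes 0 were called, 0 had an unadjusted p under 0.05 and 0 were called by DESeq2. That does not show the same level, since the 95% intervals reached from −0.36 to 0.66 for *Zfp352* and from −1.26 to 1.75 for *Usp17le*. No library had UNC0638 without TSA, so what it does alone to these genes was not measured. The study reports that UNC0638 by itself was toxic to SCNT embryos, and that with TSA it improved their development. It does not set UNC0638 apart in co-treatment, since with TSA both A366 and UNC0638 are reported to improve development as much as RK-701. The study also describes the effect of co-treatment on its reprogramming-resistant genes as similar whichever inhibitor was used.

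Whether TSA changed the response to an inhibitor was tested with an interaction term, the departure of the co-treatment from the sum of both single treatments on the log2 scale. For RK-701 it was called for 1 of the 9, *Usp17lc* (−1.52, SE 0.418, adjusted p = 0.0497), where 0.752% of all genes were called lower. *Usp17lc* was at 26.2 and 41.2 CPM in the co-treatment, under TSA alone (45.8 and 74.3 CPM) and RK-701 alone (73.9, 94.98 and 112 CPM). The call sat at the threshold and was lost in 8 of the 9 fits with a library left out, with adjusted p up to 0.224 without CC_T replicate 2. For A366 it was called for 0 of the 9 by the edgeR test and for 1 by DESeq2, where 1.83% of all genes were called in either direction. Its unadjusted p was under 0.05 for 3 of the 9, beside 4315 of the 25794 genes tested. *Usp17lc* again had a negative term (−1.29, adjusted p = 0.118), and was called without CC_cont replicate 1 (−2.07, adjusted p = 0.0457). *Tdpoz3* (1.94, adjusted p = 0.184) was called without CC_T replicate 2 (3.17, 0.0436) or CC_cont replicate 2 (2.47, 0.0328), and *Usp17le* without CC_T replicate 2, a fit that leaves 0 reads in the TSA group.

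Set against IVF, the groups differed in how many of the genes reached the fertilized level. All of these comparisons share the 4 IVF libraries. In SCNT-*Kdm3a* 3 genes were higher than IVF, *Tcstv3* (log2 1.25), *Usp17lc* (1.44) and *Tdpoz1* (1.07), and 0 were lower, where 6.59% of all genes were called higher. *Tdpoz1* fell just under 2-fold without IVF replicate 2 (0.99), and *Zfp352* was called without SCNT-*Kdm3a* replicate 2 (1.01). In CC_TG (UNC0638) 4 were higher, *Tcstv3* (1.56), *Usp17lc* (1.42), *Tdpoz1* (1.08) and *Tdpoz4* (1.17), where 5.54% of all genes were. *Tdpoz4* was lost without IVF replicate 2 (adjusted p = 0.0747) or 3 (0.0650) or without either CC_TG (UNC0638) library (0.254 and 0.0626) and by DESeq2 (0.0805), and *Tdpoz1* without CC_TG (UNC0638) replicate 1 (log2 0.95). In SCNT-*Kdm4d* 4 of the 9 had an unadjusted p under 0.05, beside 6966 of the 25794 genes tested. In that group 0 of the 9 were called by the edgeR test and 0 by DESeq2, where 9.31% of all genes were called in either direction. Its *Usp17la* level was 201% of IVF (log2 1.01, adjusted p = 0.121), and its *Tcstv1* level 53.6% (log2 −0.90, adjusted p = 0.0310), called without IVF replicate 1 (−1.04) or SCNT-*Kdm4d* replicate 2 (−1.35).

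In the other groups the calls were all lower than IVF. With TSA alone *Usp17la* (log2 −1.43), *Usp17le* (−4.59) and *Tdpoz3* (−2.52) were lower, 3 of the 9, where 7.12% of all genes were. *Usp17la* was lost without IVF replicate 1 (adjusted p = 0.0802), IVF replicate 3 (0.0844) or CC_T replicate 1 (0.432), and without CC_T replicate 2 *Zfp352* (−1.56), *Tcstv1* (−1.11) and *Tdpoz4* (−1.90) were called as well. With RK-701 alone *Usp17la* (−1.62) and *Usp17le* (−2.71) were lower, where 5.15% of all genes were, and *Usp17la* was lost without RK-701 replicate 1 (0.0578). With A366 alone *Usp17la* (−1.93), *Usp17le* (−3.78) and *Tdpoz3* (−1.88) were lower, where 7.14% of all genes were. Without A366 replicate 1 or 2 the calls of *Usp17la* (0.0513 and 0.0784) and *Tdpoz3* (0.0629 and 0.0531) were lost.

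Co-treatment with RK-701 left *Tcstv1* (−1.08), *Usp17lc* (−1.11), *Usp17le* (−2.06) and *Tdpoz3* (−1.42) lower than IVF, where 5.95% of all genes were. With 1 library left out 1 to 4 of them remained. Without CC_TG (RK-701) replicate 1, *Usp17lc* (0.148) and *Usp17le* (0.255) were lost, and without replicate 2 *Tcstv1* (0.140), *Usp17le* (0.100) and *Tdpoz3* (0.381). *Usp17le* was also lost without IVF replicate 1 (0.0750) or 3 (0.0510), *Tdpoz3* without IVF replicate 2 (0.0599), and *Tcstv1* fell under 2-fold without IVF replicate 3 (log2 −0.88). Co-treatment with A366 left *Zfp352* (−1.05), *Usp17la* (−2.03) and *Usp17le* (−2.31) lower, where 5.37% of all genes were. Without CC_TG (A366) replicate 2 all of these calls were lost, *Zfp352* at a log2 difference of −0.98 and the others at adjusted p of 0.0522 and 0.0752. Without replicate 1 *Usp17la* (0.0915) and *Usp17le* (0.218) were lost, without IVF replicate 1 *Usp17le* (0.0505), and without IVF replicate 3 *Zfp352* (log2 −0.99). *Usp17le* stayed under every IVF library in all 10 SCNT groups, and its highest group mean among them was 52.6% of IVF.

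MERVL itself was read from the deposited counts of element copies, summed over 1461 copies of MERVL-int and 2366 of MT2_Mm and scaled by the gene factors. MERVL-int was at 7789 to 8378 CPM in IVF and at 4071 and 4562 CPM in control SCNT, 53.5% of the IVF mean. Among SCNT groups SCNT-*Kdm3a* (87.7%) and CC_TG (UNC0638) (82.7%) had the highest means and CC_cont (41.3%) the lowest. These 2 were also the only SCNT groups with members called higher than IVF (3 and 4 of the 9, where 6.59% and 5.54% of all genes were). The order was not shared throughout, since MT2_Mm was at 96.9% of IVF with A366 alone, where 0 members were called over CC_cont, and at 42.4% with RK-701 alone, where the *Tdpoz* genes were near the threshold. These are values side by side over 11 group means and were not tested against each other.

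The members did not all vary alike. Pearson's r was taken over the 11 group means of log2(CPM + 1), which share libraries and depth. It was 0.85 for *Usp17la* with *Usp17le*, 0.90 for *Zfp352* with *Usp17lc* and 0.87 for *Tdpoz3* with *Tdpoz4*. For *Usp17la* with *Usp17lc* it was 0.37, and for *Usp17lc* with *Usp17le* 0.25. A further 16321 genes were compared over the 11 group means of log2(TPM + 1). Those most like *Tcstv3* were *Gm21818* (r = 0.964), *BC147527* (0.963) and *Gm21731* (0.91), all on chromosome 13 and 143.0, 8.1 and 75.5 kb from it. The gene most like *Usp17lc* was *Usp17ld* (0.97), with which it has transcript windows in common, followed by *Gm6494* (0.914) and *Dop1a* (0.911). *Zfp352* was most like *Pdgfrl* (0.974), *Gm6877* (0.967) and *Ceacam1* (0.963), and *Tdpoz1* most like *Gm5157* (0.923), *Gm6882* (0.916) and *Gm8016* (0.903).

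Other genes of the two-cell stage were read beside the 9, from a list of 24 of which 22 were tested. In control SCNT 8 of the 22 were lower than in IVF and 0 higher, where 6.82% of all genes tested were called lower. Among the 8 was *Zscan4d* (group means of 178 CPM in IVF and 8.17 CPM in control SCNT, log2 −4.44, adjusted p = 8.86e-08), a telomere maintenance factor of this stage. Over the untreated control, 8 rose with *Kdm3a*, 5 with *Kdm4d*, 0 with TSA, 6 with RK-701, 0 with A366, 2 and 3 with the RK-701 and A366 co-treatments, and 16 with UNC0638. In the same order, 2.38%, 2.11%, 0.159%, 1.73%, 0.0814%, 3.68%, 3.06% and 3.68% of all genes tested were called higher. *Zscan4d* rose in the RK-701 (2.11, adjusted p = 0.00277), A366 (1.76, adjusted p = 0.0115) and UNC0638 (3.78, adjusted p = 1.25e-05) co-treatments, whereas the 9 genes were called in the last alone.

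**Figure D5:**
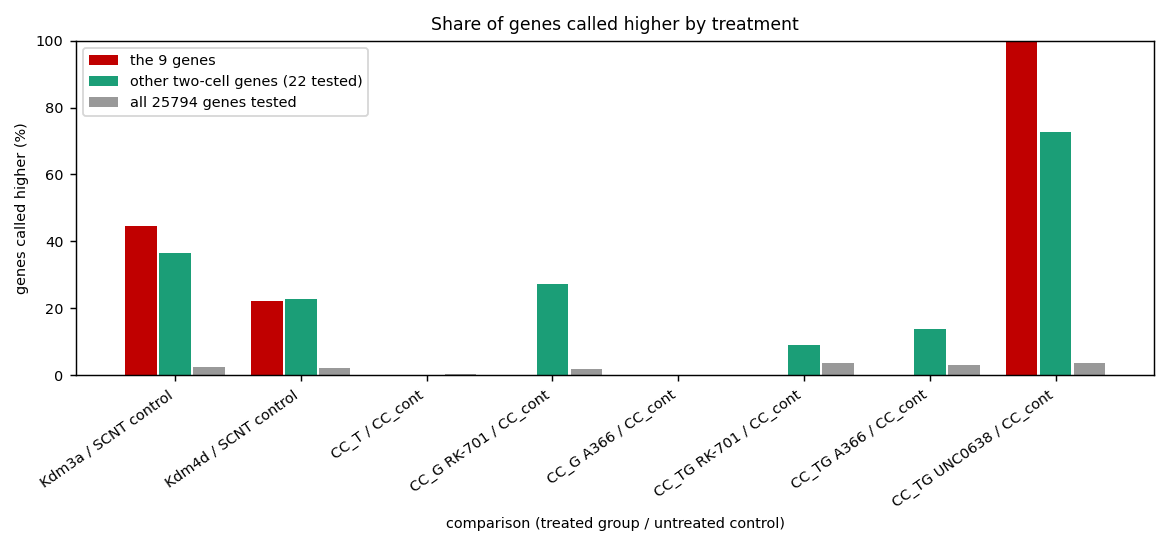
Percentage of genes called higher (vertical axis, bars from 0) in each of 8 comparisons of a treated group with its untreated control, for the 9 genes, 22 other two-cell genes and all 25794 genes tested. Of the 9 genes all 9 were called with UNC0638 and TSA, 4 with *Kdm3a*, 2 with *Kdm4d* and 0 in the TSA, RK-701 and A366 groups.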

How the data were processed

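Total RNA of pooled two-cell embryos was made into SMART-Seq HT libraries. Per the labels and methods, reads were trimmed (Trimmomatic) and aligned to mm10 (STAR), with only unique alignments that had no mismatch kept, and the authors deposited counts per gene and per element copy from featureCounts, unstranded by its command line. Reads shared by near-identical copies are therefore missing from the counts of multicopy genes. If the mismatch limit was run as the methods state it, so are reads of DBA2 alleles that differ from the reference, which all embryos carry, and levels between genes are affected by both losses. The loss of DBA2 reads could also differ between IVF and SCNT embryos, whose oocytes were of different strains, which was not tested.

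Samples were grouped by the labels. The counts were fitted in R 4.3.3 with edgeR 4.0.16 (TMM factors, quasi-likelihood test) in 1 model of 11 groups and 25 libraries. Autosomal genes averaging at least 1 read (25794) were tested. A gene was called at a Benjamini-Hochberg adjusted p under 0.05 over all of them and a change over 2-fold. CPM and TPM were computed from the counts. A group with at most 3 reads in each library gave a bound, and bounds cover counting error only. Total counts were 6662727 to 21188688 per library.

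The test was checked on simulated counts. DESeq2 1.42.0, other factors and filters, smaller fits, a replicate block, the other control and leaving out each library were the alternatives. All 9 genes, their relatives, the other two-cell genes and the 3 genes most like the leading gene of each family were named. The genes and lists were chosen with earlier results of these data known. The 6 direct comparisons between inhibitors in co-treatment, between inhibitors alone, between demethylases and between controls were added after the values were seen.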

Additional observations from a re-analysis of the deposited data

Results flagged for a closer look

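The TSA and RK-701 interaction term of *Usp17lc* differed from 0, that is, the response of this gene to RK-701 differed with and without TSA. The term was −1.52 on the log2 scale (SE 0.418, edgeR quasi-likelihood adjusted p = 0.0497). It was negative in every fit with a library left out, but passed the threshold in 1 of the 9. The part of the single CC_T libraries, which differed by 1.52 to 4.51 times in the genes with reads in both, was not tested.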

How the results depend on the processing

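Over 26 comparisons, 0 of the 59 calls of a gene changed direction under any alternative run. The limits are the groups of 2 libraries and the low counts of *Usp17le*. Replacing the untreated control moved the number of the 9 genes called from 0 to 2 with TSA, 2 with RK-701, 4 in CC_TG (RK-701) and 3 in CC_TG (A366). With RK-701 alone DESeq2 called 1 and the fit without a filter on low counts 2. For SCNT-*Kdm4d* against IVF the count went from 0 to 1 without the filter and to 2 with only the compared libraries. The interaction of TSA and RK-701 went from 1 to 0 with RLE factors, with only the compared libraries, with the replicate block and with factors from genes and transposable elements, and that of TSA and A366 from 0 to 1 with DESeq2 and without the filter. Why these counts moved was not tested.

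No pairing of the samples by replicate number was seen. Over 37 pairs of same-numbered libraries the correlation of deviations from the group means was −0.298 to 0.098 (median 0.01, 16330 genes). Where both groups have 2 libraries, their 2 pairs give the same value by construction, so the 37 are not independent. With the replicate block the count went from 4 to 1 in CC_TG (RK-701) against IVF and from 2 to 1 between RK-701 and A366 alone, and in CC_TG (UNC0638) against CC_cont from 9 to 8. It also lost *Usp17la* (adjusted p = 0.0637) and *Tdpoz4* (0.0586) between the UNC0638 and A366 co-treatments, *Tdpoz4* (0.0962) in CC_TG (UNC0638) against IVF and *Usp17la* (0.0746) in CC_T against IVF.

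With each library left out in turn, the count was 2 to 5 for CC_cont against IVF, 2 to 3 for SCNT-*Kdm3a* and 1 to 2 for SCNT-*Kdm4d* against control SCNT. Against CC_cont it was 0 to 4 for RK-701, 0 to 1 for A366, 0 to 2, 0 to 1 and 4 to 8 for the RK-701, A366 and UNC0638 co-treatments. Against IVF it was 2 to 4 for SCNT-*Kdm3a*, 0 to 1 for SCNT-*Kdm4d*, 2 to 6 for TSA, 1 to 2 for RK-701, 1 to 3 for A366, and 1 to 4, 0 to 3 and 2 to 4 for the RK-701, A366 and UNC0638 co-treatments. It was 0 to 1 and 0 to 2 for the interactions with RK-701 and A366, 3 to 4 and 2 to 4 for UNC0638 against RK-701 and A366 in co-treatment, 0 to 3 between demethylases, 0 to 2 between inhibitors alone and 0 to 1 between controls.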
